A study of Mus musculus with 6 samples.

Results

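Inflammasome and caspase components were examined in RNA of mouse hippocampus as 6 genes, Nlrp3, Pycard, Casp1, Gsdmd, Casp8 and Casp9. They were taken by gene symbol from the 15388 genes of the deposited count table. All 6 were present and all 6 were tested. RNA came from the hippocampi of 3 mice, animals 201, 207 and 208, about 3 months old at the start of tamoxifen treatment and sampled some weeks after it, and every mouse carried 1 copy of Cx3cr1-Cre/Ert2 and 1 of the NuTRAP reporter. Tamoxifen-induced Cre, driven by the Cx3cr1 promoter, puts a GFP-tagged ribosomal protein on ribosomes of the recombined cells, a group that holds microglia and other Cx3cr1-expressing macrophages. In translating ribosome affinity purification (TRAP), part of the cleared homogenate is kept as input and the ribosomes bound by anti-GFP antibody form the positive fraction, so each mouse gave 1 input and 1 positive library. No untreated or Cre-negative library was analysed here, and no inflammatory stimulus appears in the labels of these mice. Whether each mouse was male or female is not given in the labels.

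An inflammasome is a cytosolic complex that answers danger signals. A sensor such as NLRP3 recruits the adaptor ASC, encoded by Pycard, which gathers pro-caspase-1. Active caspase-1 cleaves pro-interleukin-1 beta, pro-interleukin-18 and gasdermin D, whose released end forms pores in the plasma membrane and causes pyroptosis. Caspase-8 starts the death receptor pathway of apoptosis and holds back necroptosis, and caspase-9 is activated on the apoptosome after cytochrome c leaves mitochondria. In the brain, microglia are known as the main cells with an NLRP3 inflammasome.

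Promoter sequences are shown for 4 of the genes. Nlrp3, Pycard and Casp1 were high in the positive fraction and Casp9 was not. Casp8 was also high there, at 14.7-fold, but its promoter is not shown, and the core marked below was found 0 times in it. The sequences shown are therefore not all those of the enriched genes. The RefSeq promoters (build GRCm38.p6, 250 bases before to 50 after a start site, sense strand of the gene) covered 5 of the 6 genes, Gsdmd not among them. Capitals mark the core GAGGAA of motifs bound by PU.1, a transcription factor of the macrophage lineage, on either strand, and in Pycard also the longer GAGGAAGT, which contains the core.
Nlrp3, chr11:59542436-59542735, plus strand: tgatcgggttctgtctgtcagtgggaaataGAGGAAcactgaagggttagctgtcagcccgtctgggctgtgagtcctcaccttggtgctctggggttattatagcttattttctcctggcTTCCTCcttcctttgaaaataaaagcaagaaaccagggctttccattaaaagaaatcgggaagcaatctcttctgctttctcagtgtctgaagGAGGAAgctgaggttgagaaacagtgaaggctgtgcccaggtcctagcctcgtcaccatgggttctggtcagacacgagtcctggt
Pycard, chr7:127993818-127994117, minus strand: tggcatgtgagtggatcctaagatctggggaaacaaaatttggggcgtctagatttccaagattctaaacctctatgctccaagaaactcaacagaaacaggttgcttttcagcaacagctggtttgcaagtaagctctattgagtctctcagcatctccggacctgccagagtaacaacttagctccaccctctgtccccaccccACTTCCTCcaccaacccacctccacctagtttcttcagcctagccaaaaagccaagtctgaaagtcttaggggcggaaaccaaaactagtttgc
Casp1, chr9:5298267-5298566, plus strand: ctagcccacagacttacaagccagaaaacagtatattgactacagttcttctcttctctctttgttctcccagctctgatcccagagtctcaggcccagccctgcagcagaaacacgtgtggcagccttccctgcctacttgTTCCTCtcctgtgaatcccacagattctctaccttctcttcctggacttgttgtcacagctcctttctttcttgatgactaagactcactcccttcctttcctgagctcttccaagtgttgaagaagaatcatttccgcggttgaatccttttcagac
Casp9, chr4:141793362-141793661, plus strand: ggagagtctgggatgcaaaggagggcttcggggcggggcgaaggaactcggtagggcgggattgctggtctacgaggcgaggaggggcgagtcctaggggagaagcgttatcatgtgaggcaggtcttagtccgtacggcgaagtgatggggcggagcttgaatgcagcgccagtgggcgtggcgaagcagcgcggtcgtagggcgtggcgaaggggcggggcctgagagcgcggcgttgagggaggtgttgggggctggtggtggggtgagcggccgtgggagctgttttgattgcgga
The core was found 3 times in this Nlrp3 promoter, with first bases at -220, -129 and -36 from the start site, and 0 times in the other Nlrp3 entry, which starts upstream. It was found once in Pycard, at -42, and once in Casp1, at -108, in both cases on the opposite strand. In Casp8 and Casp9 it was found 0 times. The letters are common, since 28.3% of all 32851 promoters held GAGGAA and 3.2% held GAGGAAGT. The Casp9 promoter had 66% G and C, above 83.8% of all promoters, against 42% to 49.3% in the 5 other entries and a median of 52.7% over all promoters. These matches describe letters in a window and say nothing of binding.

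The libraries held 14879734 to 16488460 reads in input and 15790210 to 17757918 in the positive fraction. Reads were scaled to a common library size (median-of-ratios), and the result is called scaled reads below. Fold changes are positive fraction over input. Of 15343 genes tested, 7053 or 46.0% differed, 3684 of them higher and 3369 lower (quasi-likelihood F test of edgeR with Benjamini-Hochberg adjustment, threshold 0.05, n = 3 libraries per fraction). Under total count scaling, 3048 were higher and 4281 lower. Of the 12 microglial markers checked, Cx3cr1, P2ry12 and Tmem119 among them, all 12 were higher, with a median log2 fold change of 4.62. Their summed level was 5369 to 5652 scaled reads in the input libraries and 101900 to 150300 in the positive libraries, lowest in animal 208 and highest in 207.

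Of the 6 inflammasome and caspase genes, 5 were higher in the positive fraction and 0 lower, whereas 24.0% of all genes tested were higher. Those 5, Nlrp3, Pycard, Casp1, Gsdmd and Casp8, were each over 5-fold higher, the limit that the study's methods set for a marker, which 3.75% of genes tested passed. Their input and positive libraries did not overlap, with the positive libraries on the higher side, as in 29.0% of genes tested, and 0 of the 6 lay wholly lower, as 27.5% of genes did. Casp9 did not pass the test, and its libraries overlapped. Genes were tested where every library of at least 1 fraction exceeded 20 scaled reads, and Nlrp3 and Casp1 met this only in the positive fraction, so being high there is what let them be tested. The other 4 met it in both fractions. The median log2 fold change was 3.47 over the 6 genes and -0.01 over all genes tested. In a tissue extract, fewer cells of a type and less RNA per cell cannot be told apart, and this holds for every input value given here.

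Nlrp3 (ENSMUSG00000032691, chromosome 11, 59541568 to 59566956, plus strand, mm10), the sensor, had 10.2, 13.2 and 8.39 scaled reads in the input of animals 201, 207 and 208. In the positive fraction it had 187.4, 298.5 and 159.9. Every positive library was more than 10-fold above every input library. The log2 fold change was 4.32 ± 0.31 (SE), or 20-fold, at adjusted p = 1.69e-07 (edgeR, n = 3 per fraction). Only 8 to 13.8 raw reads per input library stood behind this ratio, and its 95% interval, from 12.5-fold to 32-fold, was the widest of the 5.

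Pycard (ENSMUSG00000030793, chromosome 7, 127989708 to 127993867, minus strand), whose product ASC links sensors to caspase-1, had 32.6, 39.5 and 31.5 scaled reads in the input libraries. It had 614.8, 794.2 and 580.5 in the positive libraries. The groups were far apart, and the 3 within-animal ratios were the closest to each other of any of the 6 genes, with log2 values of 4.19, 4.30 and 4.16 (pseudocount of 1 scaled read, here and for every within-animal ratio). The log2 fold change was 4.26 ± 0.18 (SE), or 19.1-fold, at adjusted p = 9.09e-10 (edgeR). An unconfirmed annotated transcript, Gm45205, overlaps Pycard on the other strand, and alignment used strand.

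Casp1 (ENSMUSG00000025888, chromosome 9, 5298517 to 5307265, plus strand), the protease of the inflammasome, had 19.4, 37.6 and 36.7 scaled reads in the input libraries. It had 175.1, 205.5 and 147.5 in the positive libraries. The input of animal 201 was the low value, and the within-animal log2 ratio was highest there, at 3.11 against 2.42 and 1.98 in animals 207 and 208. The log2 fold change was 2.49 ± 0.25 (SE), or 5.61-fold, the smallest of the 5, at adjusted p = 4.24e-06 (edgeR). It exceeded 5-fold in 2 of 3 animals, and without the input library of animal 201 the log2 fold change was 2.24, under that limit.

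Gsdmd (ENSMUSG00000022575, chromosome 15, 75862339 to 75867404, plus strand), the pore-forming substrate of caspase-1, had 45.9, 47 and 42 scaled reads in the input libraries. It had 380, 471.5 and 283.5 in the positive libraries. The input values were the least variable relative to their mean of the 5 enriched genes, and the positive libraries spread with 207 highest and 208 lowest. The log2 fold change was 3.07 ± 0.21 (SE), or 8.4-fold, at adjusted p = 8.33e-08 (edgeR).

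Casp8 (ENSMUSG00000026029, chromosome 1, 58795374 to 58847503, plus strand), the initiator of the death receptor pathway, had 36.7, 37.6 and 56.6 scaled reads in the input libraries. It had 677.6, 747.7 and 491.2 in the positive libraries. Animal 208 had the highest input and the lowest positive value, so its log2 ratio was 3.09 against 4.17 and 4.28 in animals 201 and 207. The log2 fold change was 3.88 ± 0.21 (SE), or 14.7-fold, at adjusted p = 8.9e-09 (edgeR). An unconfirmed annotated transcript, Gm37760, lies within Casp8 on the same strand, and its reads cannot be told apart from those of Casp8.

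Casp9 (ENSMUSG00000028914, chromosome 4, 141793612 to 141815976, plus strand), the initiator of the mitochondrial pathway, had 517.2, 476.4 and 467.8 scaled reads in the input libraries. It had 506.7, 593.3 and 498.5 in the positive libraries. The groups overlapped, and the positive value was higher in 2 of 3 animals. The log2 fold change was 0.13 ± 0.11 (SE), at adjusted p = 0.336 (edgeR). The 95% interval of its fold ran from 0.934 to 1.28, so that a change as large as that of Casp1 lies outside it. Casp9 was the most read of the 6 genes in input, and it held 74.7% of their summed scaled reads there and 20.5% in the positive fraction. Cela2a and Ctrc, which overlap Casp9 on the other strand, were not analysed here.

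**Figure D1:**
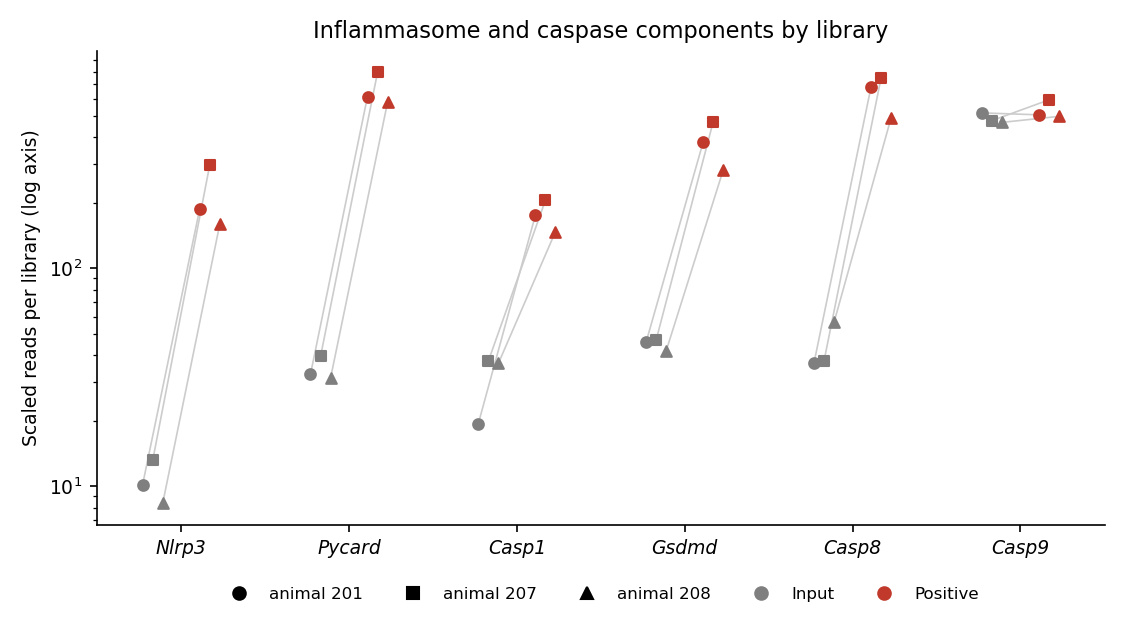
Scaled reads of the 6 genes in each library on a log axis, with input in grey, the positive fraction in red, a marker shape per animal and a line joining the libraries of an animal. For Nlrp3, Pycard, Casp1, Gsdmd and Casp8 all positive libraries lie above all input libraries, from 147.5 to 794.2 against 8.39 to 56.6, while Casp9 stays between 467.8 and 593.3 throughout.

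The size of the enrichment was compared among the genes within animals. Ordered by the mean within-animal log2 ratio, they were Pycard at 4.22 ± 0.07, Nlrp3 at 4.19 ± 0.18, Casp8 at 3.85 ± 0.65, Gsdmd at 3.02 ± 0.29 and Casp1 at 2.50 ± 0.57, and Casp9 followed at 0.13 ± 0.18 (SD, n = 3 animals). Pycard and Nlrp3 differed by 0.03 ± 0.12, with 2 animals one way and 1 the other. Nlrp3 and Casp8 differed by 0.34 ± 0.58, also with mixed signs, and so did Gsdmd and Casp1, by 0.51 ± 0.53. These neighbours did not differ beyond their spread. Casp8 exceeded Gsdmd by 0.83 ± 0.41 in all 3 animals. Pycard exceeded Gsdmd by 1.20 ± 0.22 and Casp1 by 1.72 ± 0.57 in all 3 animals. Casp1 exceeded Casp9 by 2.38 ± 0.67 in all 3. With 3 animals the exact sign-flip permutation test cannot give a two-sided p under 0.25, and the 15 pairs of genes were therefore described and not called.

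**Figure D2:**
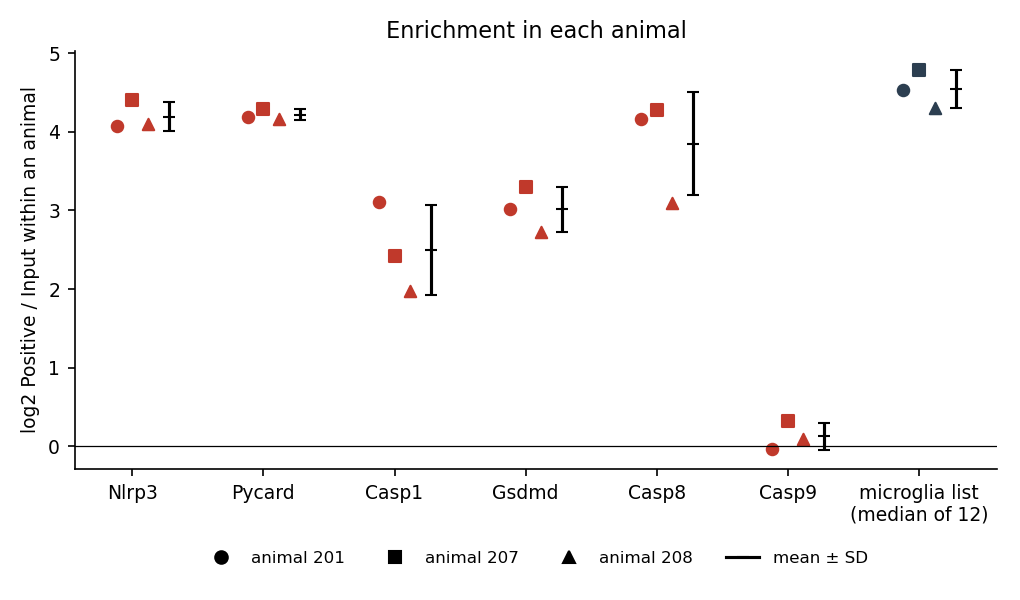
Log2 ratio of positive fraction to input within each animal for the 6 genes, and the median of the 12 microglial markers in the same animals, with the mean and SD beside the points. Pycard and Nlrp3 lie near 4.2 in every animal, Casp8 of animal 208 falls to 3.09, and Casp9 lies around 0.

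The positive libraries of the 5 enriched genes kept 1 order, with animal 207 highest and 208 lowest in each, and the summed microglial markers had the same order. Each gene was therefore also expressed per 1000 reads of the 12 microglial markers in the same library, a measure chosen after the values were seen. Nlrp3 had 1.85, 2.33 and 1.56 such units in the input of animals 201, 207 and 208 and 1.51, 1.99 and 1.57 in the positive fraction. These values overlapped, so Nlrp3 stood in about the same proportion to the markers in both fractions. Pycard was at 6.25 ± 0.63 in input and 5.31 ± 0.37 in the positive fraction (SD, n = 3), a narrow gap without overlap.

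The other genes were lower relative to the markers in the positive fraction. Casp8 had 64% of its input value, with 7.95 ± 2.25 in input and 5.09 ± 0.33 in the positive fraction (SD, n = 3). Gsdmd had 36.7%, with 8.15 ± 0.29 against 2.99 ± 0.19. Casp1 had 24.9%, with 5.67 ± 1.87 against 1.41 ± 0.04, the least variable value of the positive libraries. Casp9 had 4.87%, with 88.4 ± 4.87 against 4.31 ± 0.51. No input value of these 4 genes overlapped a positive value. The markers themselves had a median log2 fold change of 4.62, so a gene that rose clearly less than they did falls in this measure. Nlrp3, about level here, had a higher log2 fold change than 99.17% of genes tested. A fall is therefore the usual outcome and restates the smaller fold changes of these 4 genes. The share of all genes without overlap in this measure was not computed, and the differences were not tested.

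**Figure D3:**
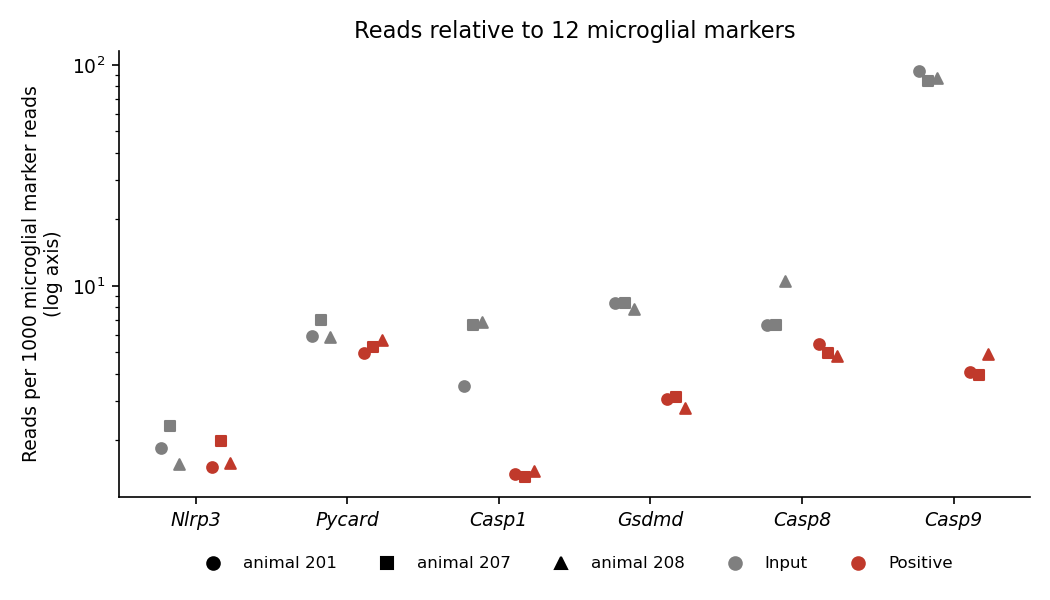
Reads of each gene per 1000 reads of 12 microglial markers in the same library, on a log axis, with input in grey and the positive fraction in red. Nlrp3 overlaps between the fractions near 1.5 to 2.3, Casp1 falls from between 3.51 and 6.84 to about 1.4, and Casp9 falls from over 84 to under 4.9.

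Levels of different genes were compared per kilobase of joined exons. In input, Casp9 led with 93.7 ± 5.07 scaled reads per kilobase (SD, n = 3), above Casp1 at 20.9 ± 6.86, Gsdmd at 18.9 ± 1.11, Casp8 at 15.1 ± 3.89, Pycard at 9.09 ± 1.14 and Nlrp3 at 2.61 ± 0.59. Casp1, Gsdmd and Casp8 overlapped as neighbours. In the positive fraction the order was Casp8 at 220.8 ± 45.8, Pycard at 174.5 ± 30.2, Gsdmd at 159.2 ± 39.6, Casp1 at 117.6 ± 19.4, Casp9 at 102.5 ± 10.1 and Nlrp3 at 53.1 ± 18.1. There every neighbour overlapped the next except Casp9 and Nlrp3, so Nlrp3 was the lowest of the 6 per kilobase in each fraction. The order depends on the length used. The annotated exons of Pycard join to 3800 bases while its coding sequence has 579. Per kilobase of coding length it was the highest in the positive fraction, at 1145 ± 198.2, and Casp8 followed at 425.9 ± 88.4. Casp9 was then the third, at 391.2 ± 38.6, and its range of 366.0 to 435.6 lay above that of Gsdmd, 194.1 to 322.7, the reverse of their order by exons. In input Casp9 led by either length, at 357.7 ± 19.4 per kilobase of coding length, and Nlrp3 was the lowest by either.

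The other genes of these pathways were read from 8 lists. In all, 71 genes other than the 6 were tested, and 42 were higher, 7 lower and 22 did not pass. Their median log2 fold change was 0.77, and 17 were over 5-fold higher. Over all genes tested, 24.0% were higher, 22.0% lower and 3.75% over 5-fold higher, and the list counts below are to be read against these shares. Of the 71, 13 passed the filter on low values only through the positive fraction, 12 of them among the higher genes, and 0 only through input. The counts of higher genes therefore describe the genes tested and not the whole lists.

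Among inflammasome sensors and other NOD-like receptors, 8 of 18 listed genes were tested and 7 were higher. Of these, 4 (Naip2, Naip6, Nlrc5 and Nlrp1a) passed the filter only through the positive fraction. With the filter at 100 scaled reads 4 genes were higher, namely Aim2, Nod1, Naip2 and Naip5. These too met it only in the positive fraction, so the stricter filter does not remove this limit. Naip2, whose product detects bacterial proteins for the NLRC4 inflammasome, rose from 8.01 ± 1.71 to 245.4 ± 56.5 scaled reads (SD, n = 3). On the log2 scale this was a change of 4.92 ± 0.28 (SE). Nlrp1a, another sensor, had 2 raw reads in each input library and 153 in all over the positive libraries. The ratio was 25.4, with an exact 95% counting interval of 11.4 to 70.3. That interval pools reads over libraries and takes each read as independent, so it leaves out the spread between animals. Aim2, the sensor of cytosolic DNA, rose from 63.7 ± 8.22 to 284.1 ± 100, with a log2 fold change of 2.16 ± 0.26. Naip2, Naip5 and Naip6 are close paralogs, and how shared reads were divided among them is uncertain. Nlrx1, a mitochondrial family member, had a log2 fold change of 0.28 at adjusted p = 0.131 (edgeR). Nod1 had 0.58 with 0.0456. Its call was lost without the input libraries of animals 207 or 208 or the positive libraries of 201 or 207, the adjusted p (edgeR) then being 0.12, 0.16, 0.193 and 0.0971. It was also lost under total count scaling and with limma, at adjusted p = 0.0779 and 0.0804. The other 10 genes of the list, Nlrc4 and Mefv among them, were not analysed here.

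Other caspases were set beside Casp1, Casp8 and Casp9. Casp4, the mouse caspase-11 that senses lipopolysaccharide in the cytosol and also cleaves gasdermin D, had 2.04, 1.88 and 4.195 scaled reads in the input libraries and 43.3, 44.6 and 31.2 in the positive libraries. Its log2 fold change was 3.83 ± 0.42 (SE), with few input reads behind it. Casp4 passed the filter on low values only through the positive fraction, so being high there is what let it be tested. Of 5 other caspases tested, 4 were higher. With the filter at 100 scaled reads 2 were higher, of which Casp6 met it only in the positive fraction. Casp6, an effector caspase, rose from 52.3 ± 11.8 to 131.7 ± 19.2 scaled reads (SD, n = 3), a log2 fold change of 1.34 ± 0.22. Casp2, which like Casp9 is an initiator with a caspase recruitment domain, had a log2 fold change of 0.27 ± 0.16 at adjusted p = 0.192 (edgeR).

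Among gasdermins and membrane rupture genes, 2 of 6 listed symbols were tested besides Gsdmd. Ninj1, needed for membrane rupture after pore formation, had 227.2 ± 18.4 scaled reads in input and 332.8 ± 102.8 in the positive fraction (SD, n = 3), which is on the log2 scale a change of 0.55 at adjusted p = 0.0291 (edgeR). This call was lost without any single input library, the adjusted p (edgeR) then being 0.0741, 0.0527 and 0.0978 for animals 201, 207 and 208. It was also lost without the positive library of 207, with 0.18, under total count scaling, with 0.0518, and with limma, with 0.0966. Gsdme, another gasdermin, had 0.32 ± 0.17 at adjusted p = 0.135 (edgeR).

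Of the 15 genes of NLRP3 priming and activation, all 15 were tested and 11 were higher, with a median log2 fold change of 1.11. Txnip, a redox protein that binds NLRP3, rose from 406.8 ± 78.8 to 2487 ± 595.8 scaled reads (SD, n = 3), which is on the log2 scale a change of 2.61. Clic1, a chloride channel protein, had 3.18, and Nek7, the kinase that binds NLRP3 on activation, had 1.11. Of genes that act on ion fluxes ahead of NLRP3, the potassium channel gene Kcnk6 had 3.94, the ATP-gated channel gene P2rx7 had 2.34 and the potassium channel gene Kcnk13 had 1.18, each higher in all 3 animals. Clic4, Panx1, Pstpip1 and Brcc3 did not pass, with log2 fold changes of -0.17, -0.12, 0.22 and -0.07.

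Of 12 listed genes of the interleukin-1 family and its receptors, 7 were tested, and 2 were higher and 2 lower. Both higher genes, Il1a and Il1rl1, passed the filter only through the positive fraction, and with the filter at 100 scaled reads 0 were higher and 2 lower. Il1a, an alarmin cytokine, rose from 5.62 ± 2.3 to 56.7 ± 10.6 scaled reads (SD, n = 3), which is on the log2 scale a change of 3.30 ± 0.36 (SE). Il1rl1, the receptor of interleukin-33, had 4.04 ± 0.44 from 5.04 ± 4.49 scaled reads in input. Its within-animal log2 ratios were 2.36, 4.66 and 5.04 in animals 201, 207 and 208, and without the input library of animal 201 its log2 fold change was 5.025. Il33 itself fell from 677.3 ± 42 to 259.7 ± 44.3, with a log2 fold change of -1.38 ± 0.13. Il18, which encodes a cytokine substrate of caspase-1, had 183.7 ± 24.1 in input and 162.3 ± 51 in the positive fraction. Its log2 fold change was -0.17 at adjusted p = 0.533 (edgeR). The receptor gene Il1r1 had -0.05 with 0.807. Il1rap, the shared co-receptor, fell by 0.315 on the log2 scale at adjusted p = 0.0158 (edgeR), and the call was lost without the input libraries of animals 207 or 208 or the positive library of 207, with 0.0814, 0.0625 and 0.0547. Il1b was not analysed here.

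Most tested partners of Casp8 were higher. Of 15 listed genes of the death receptor and necroptosis pathway, 9 were tested and 8 were higher, of which Ripk3 and Tnfsf10 passed the filter only through the positive fraction. With the filter at 100 scaled reads 5 were higher, of which Ripk1 met it only in the positive fraction. Tnfrsf1a, the main receptor of tumour necrosis factor, rose from 184.8 ± 11.1 to 906.8 ± 188 scaled reads (SD, n = 3), which is on the log2 scale a change of 2.29. The adaptor gene Fadd had 1.35 and Cflar, the inactive homologue that partners caspase-8, had 1.26. The kinase genes Ripk1 and Ripk3 had 1.48 and 2.84, and Bid, a caspase-8 substrate, had 0.89. Tnfrsf21, or death receptor 6, was abundant in both fractions and had 0.45. Tradd did not pass, with 0.27 at adjusted p = 0.228 (edgeR).

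The partners of Casp9 mostly did not pass, which was also the outcome for 8290 of all 15343 genes tested. Of 9 genes of the apoptosome and its inhibitors tested, 1 was higher, 1 lower and 7 did not pass, with a median log2 fold change of -0.04. Apaf1, the scaffold of the apoptosome, had 348.7 ± 41.3 scaled reads in input and 385.7 ± 45.6 in the positive fraction (SD, n = 3), which is on the log2 scale a change of 0.15 at adjusted p = 0.39 (edgeR). Cycs, which encodes cytochrome c, had -0.07 with 0.444. Htra2 and Diablo, mitochondrial antagonists of inhibitors of apoptosis, had 0.16 and -0.04. Birc6, a giant inhibitor of apoptosis, had -0.15 at adjusted p = 0.136 (edgeR), and under total count scaling -0.23 at 0.0274. The median of the list turned to 0.05 without the positive library of animal 208. Xiap, which inhibits caspase-9, fell from 1299 ± 66.6 to 949.3 ± 128.3, with a log2 fold change of -0.45 at adjusted p = 0.00262 (edgeR). Birc3, an inhibitor of apoptosis that acts in tumour necrosis factor signalling, was the higher gene, with 2.49.

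The BCL2 family, which gates the release of cytochrome c, was split. Of 17 genes tested, 9 were higher, 4 lower and 4 did not pass, with a median log2 fold change of 0.55. Of the 9, Bcl2a1a, Bcl2a1b and Bcl2a1d passed the filter only through the positive fraction. With the filter at 100 scaled reads the median was -0.016, with 6 higher and 4 lower. Some of the 6, Bmf and Bcl2a1b among them, met that filter only in the positive fraction. Mcl1, which protects from apoptosis, rose from 1374 ± 161.8 to 2335 ± 267.9 scaled reads (SD, n = 3), which is on the log2 scale a change of 0.77, and Bmf, a pro-apoptotic member, had 3.76. Hrk, Bcl2l2 and Bok had -0.81, -0.71 and -0.44, each lower in all 3 animals. Bax, a pore-forming member, had -0.32 at adjusted p = 0.0396 (edgeR), and that call was lost without the input libraries of animals 207 or 208 or the positive library of 208, with 0.158, 0.146 and 0.103, and with limma, with 0.0863. Bcl2l1 had -0.07 with 0.506. Bcl2a1a, Bcl2a1b and Bcl2a1d are near-identical copies and their reads are uncertain.

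**Figure D4:**
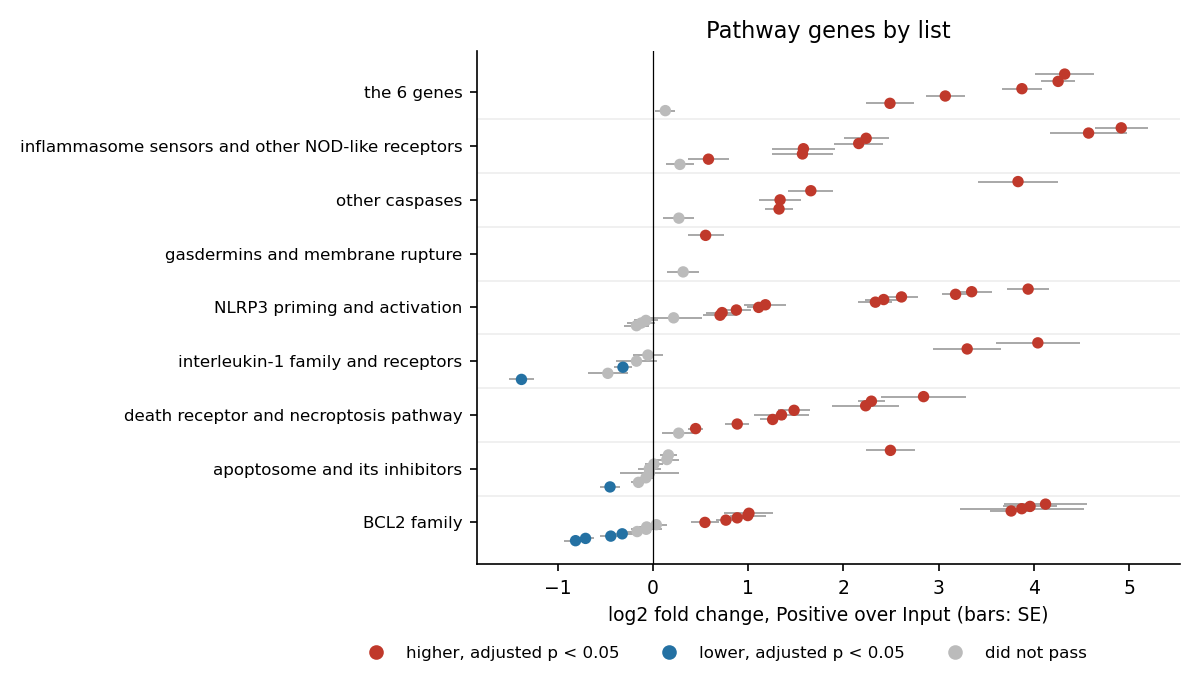
Log2 fold change of positive fraction over input for the 6 genes and for each tested gene of 8 pathway lists, with the SE as bars and colour for the call at an adjusted p-value under 0.05. Most of the death receptor and NLRP3 lists lies right of 0, while 7 of 9 apoptosome genes lie close to 0 with Casp9, the lowest point of the 6 genes.

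Markers of other cells moved with the fraction as well. Border macrophage markers, which include Mrc1, Lyve1 and Cd163, were higher in 8 of 8, 3 of which passed the filter only through the positive fraction, with a median log2 fold change of 4.08, and their sum was 522.3 to 588.2 scaled reads in input and 6063 to 11860 in the positive fraction. Endothelial markers were higher in 8 of 8, with a median of 1.88 and sums of 1562 to 1950 and 4235 to 8416. Of the neutrophil list, 1 of 9 genes was tested, Csf3r, with 3.35, and of the monocyte list 2 of 6, Ly6c2 with 1.61 and Vcan with -1.22. None of the 8 lymphocyte markers and none of the neutrophil genes S100a8, S100a9 and Ly6g was analysed here. Oligodendrocyte markers were lower in 8 of 8, with a median of -2.58. Neuronal markers had a median of 0.06, with 1 of 8 higher and sums of 93070 to 106000 in input and 99410 to 117100 in the positive fraction. Astrocyte markers had a median of -0.29, with 2 of 8 lower and 1 higher, and 5 lower with the animal as a replicate block. Without the positive library of animal 201, 7 of the 8 were lower, and without any single input library 1 was lower and 0 higher. The higher gene, Slc1a2, also lost its call without the positive library of 207. The part of these cells in the levels of the 6 genes was not tested.

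The genes with the most similar pattern were found by the distance between profiles of log2 scaled reads over the 6 libraries, each centred on its own mean, among genes with at least 100 scaled reads on average. For Nlrp3 these were Mrc1, Fermt3 and Cd86, at distances of 0.27 to 0.35 log2 units. For Pycard they included Cd86 and Ptafr, at 0.20 and 0.23. For Casp8 they were H2-T24, C5ar1 and Sh3tc1, at 0.19 to 0.29. For Gsdmd they were Man2b1, Srgn and Gm38317, at 0.18 to 0.20, and for Casp1 H2-Q6, Tor4a and Bco2, at 0.32 to 0.54. For Casp9 they were Kat6b, Tob2 and Smad7, at 0.07 to 0.08, with log2 fold changes of 0.13, 0.15 and 0.11. Ranking by Pearson correlation instead named other genes except Srgn for Gsdmd and C5ar1 for Casp8, and all of these points share the same 6 libraries.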

How the data were processed

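RNA from input and positive TRAP fractions of 3 mice was sequenced as directional poly(A) libraries. The authors trimmed reads, aligned them by strand to mm10 in Strand NGS and counted them per Ensembl gene, and the deposited raw columns hold expected counts (estimated reads that need not be whole). The deposited normalized columns are log2 values from DESeq scaling, centred by the authors on input. The table holds genes that reach 20 raw reads in each library of input or of the positive fraction, and 0 genes fell outside this limit. Even numbers made up 64.7% to 69.3% of the whole values under 60 reads, so mates of a pair may have been counted separately, and low counts such as those of Nlrp3 in input then rest on fewer fragments. Reads carry no molecular identifiers, so intervals from reads cover counting error only.

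Expected counts were rounded and tested in R 4.3.3 with edgeR 4.0.16 (glmQLFit, glmQLFTest), unpaired as in the study's methods, with median-of-ratios scaling, for the 15343 genes over 20 scaled reads in every library of 1 fraction. The Benjamini-Hochberg adjustment ran over these genes. The SE of a log2 fold change came from the F statistic. The test was checked on simulated data. Libraries of 1 number come from 1 animal, and their deviations from the fraction means correlated at 0.193, 0.058 and 0.12. DESeq2 1.42.0, limma 3.58.1 on the deposited log2 values, other scalings and filters, the animal as a block and leaving out each library were alternatives. Exon lengths came from GENCODE M21, and promoters from RefSeq. A planned comparison of caspase proteins was not run, as no protein sequences were used here.

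The 6 genes, the lists and the tests were chosen with earlier results of these data known. Named genes were the 6, the 4 most read of each pathway list, up to 2 called genes against a list's median, all caspases, the 3 nearest in pattern to each of the 6, and the 2 most read of each cell type list. Nlrc5, Tnfsf10, Kcnk6, P2rx7, Kcnk13, Panx1, Pstpip1, Brcc3, Nlrp1a, Naip5, Naip6, Fadd, Ripk1, Ripk3, Tradd, Apaf1, Diablo, Bmf and the Bcl2a1 genes were named after their values were seen, as were markers named as examples. Results of some genes that this rule names are not reported here.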

Additional observations from a re-analysis of the deposited data

How the results depend on the processing

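The calls of the 6 genes were the same in all 14 alternative fits, with 5 higher and Casp9 not past the threshold. In the fit with the filter at 100 scaled reads, these 5 were tested only through the positive fraction. Their input libraries held 8.39 to 56.6 scaled reads, so that fit is no separate check of their calls. Nlrp3 ranged from 4.01 to 4.52, Pycard from 4.11 to 4.37, Casp8 from 3.75 to 4.10, Gsdmd from 2.88 to 3.24, Casp1 from 2.24 to 2.65 and Casp9 from 0.046 to 0.178 (log2 fold change), the highest adjusted p-value of the first 5 being 0.000662 and the lowest of Casp9 0.196. Across the 6 fits that each left out a library, 5539 to 7260 genes differed and 4 to 5 of the 6 genes were over 5-fold. With the animal as a replicate block, 7567 genes differed, of which 7025 were shared with the 7053, and the block changed no call of the 6. A filter at 100 scaled reads left fewer genes (12156), and with it the median of the BCL2 family was -0.016. Il1r1 ranged from -0.182 to 0.067, Il18 from -0.416 to 0.042 and Slc17a7 from -0.05 to 0.128 when single libraries were left out, and Slc17a7 was -0.046 under total count scaling; none of these passed, and the cause was not tested. Other named genes lost a call in 26 cases and gained it in 2, of 919 compared. With a pseudocount of 5 the mean ratio of Nlrp3 was 3.78 and that of Pycard 4.07. Input depth limits genes with few input reads, among them Nlrp3, Nlrp1a, Casp4, Ripk3, Il1rl1, Il1a and the Bcl2a1 genes.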
